A study of Homo sapiens with 8 samples.

Results

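The mitochondrial genome carries 37 genes, and all of them were taken from the deposited count table by their chromosome, MT, out of 61806 genes in all. They are 13 protein genes, 2 rRNA genes and 22 tRNA genes, of which 28 are annotated on the plus strand and 9 on the minus strand. Their transcripts were measured in N/TERT-1 cells (N/TERT cells), an immortalized line of human epidermal keratinocytes of wild-type genotype. One group of 4 libraries came from cells given ethanol, the solvent control, and another group of 4 from cells given oligomycin, an inhibitor of the mitochondrial ATP synthase (complex V), together with antimycin A, an inhibitor of complex III (O/A). The cells were treated for 4 hours, a time that the sample labels do not state, and the labels give no dose. The libraries of each group came from 4 independent experiments, and the groups share the cell line and the serum-free keratinocyte medium. RNA was selected with oligo(dT) beads, so a gene's reads depend on the polyadenylated part of its RNA.

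Human mitochondrial DNA is copied into RNA by the polymerase POLRMT from a promoter on each strand, as long precursors that span many genes. One precursor carries both rRNAs, the RNA of 12 protein genes and most tRNAs, whose genes lie on the plus strand of the reference. The other carries MT-ND6 and the remaining tRNAs, whose genes lie on the minus strand. The tRNAs sit between the larger genes and are cut out by RNase P and ELAC2, and most freed mRNAs then receive a short poly(A) tail, which in several of them completes the stop codon. MT-ND6 mRNA is known to carry little or no tail. All the encoded proteins are subunits of respiratory complexes I, III and IV or of the ATP synthase.

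The annotated 3′ ends of the 5 protein genes called changed below are shown because they differ in how the stop codon is made. Each is the last 30 bases of the gene in GRCh38, read 5′ to 3′ on the gene's own strand, and the capitals mark the letters of the stop codon.
MT-ND6, MT:14149-14178, minus strand: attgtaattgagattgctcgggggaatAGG
MT-ND3, MT:10375-10404, plus strand: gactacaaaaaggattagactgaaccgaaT
MT-CO2, MT:8240-8269, plus strand: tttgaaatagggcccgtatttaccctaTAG
MT-ND4L, MT:10737-10766, plus strand: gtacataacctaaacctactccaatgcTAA
MT-ND4, MT:12108-12137, plus strand: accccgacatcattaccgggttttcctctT
MT-ND3 and MT-ND4 end in a lone T, which becomes a stop codon with the A of the tail, and MT-CO2 and MT-ND4L encode the whole codon. MT-ND6 ends in AGG. Of the 13 protein genes, 6 (MT-ND1, MT-ND2, MT-CO3, MT-ND3, MT-ND4 and MT-CYB) lack a complete stop codon in the DNA and 7 have one. The sense strand of MT-ND6 was 35.6% G and 7.05% C, whereas the 12 plus-strand protein genes were 6.28% to 16.2% G and 29.5% to 36.0% C.

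The tRNA gene called lower, MT-TQ, the tRNA for glutamine, is shown whole because 3 of its bases also belong to MT-TI on the other strand. It lies at MT:4329-4400 on the minus strand, and the capitals mark the shared bases.
MT-TQ, MT:4329-4400, minus strand: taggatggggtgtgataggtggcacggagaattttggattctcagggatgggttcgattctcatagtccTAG

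Between 17210404 and 20999927 reads per library were counted on genes, and 690471 to 1009667 of them fell on the mitochondrial genome. All 8 keratinocyte markers examined reached 1 FPKM (fragments scaled to the length of the gene and the library total), at 23.8 to 1495 FPKM, and they summed to 3411 FPKM in ethanol against 3135 FPKM in O/A. Markers of melanocytes, leukocytes and endothelial cells (0 of 4, 0 of 4 and 0 of 3) did not reach 1 FPKM in any library. Of the 5 fibroblast markers, COL1A1 alone did, at 2.38 to 2.94 FPKM. No pair of libraries was a copy.

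The mitochondrial genome took the same share of reads in both groups within their spread, and the transcripts inside that share were redistributed. The share of counted reads that fell on mitochondrial genes was 4.33%, 4.51%, 4.01% and 4.81% in ethanol and 4.01%, 4.43%, 4.64% and 4.52% in O/A. The means were 4.42% ± 0.334 (SD, n = 4) and 4.40% ± 0.276 (SD, n = 4), and the groups overlapped. In bulk RNA, fewer cells of a kind and less RNA per cell cannot be told apart. Within the mitochondrial reads, the rRNA genes took a larger share in every O/A library and the minus-strand genes a smaller one.

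**Figure D1:**
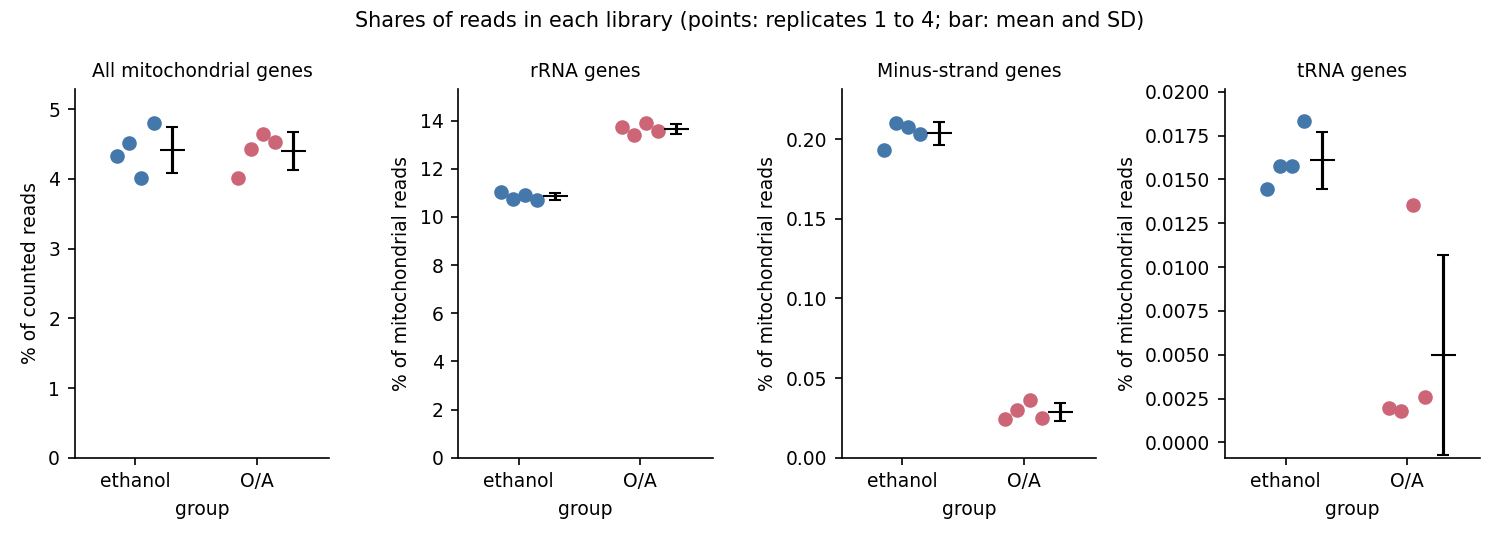
Each panel plots, for the 4 ethanol and the 4 O/A libraries (points), the percent of counted reads on mitochondrial genes, or the percent of mitochondrial reads on rRNA, minus-strand or tRNA genes, with the mean and SD beside the points. The total share overlapped between groups at about 4.4%, whereas the rRNA share was 10.7% to 11.03% in ethanol and 13.4% to 13.9% in O/A and the minus-strand share 0.193% to 0.210% and 0.0243% to 0.0366%.

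Of the 37 genes, 18 had at least 10 counts in at least 4 libraries and were tested, namely the 13 protein genes, both rRNA genes and the tRNA genes MT-TQ, MT-TS1 and MT-TP. MT-TQ and MT-TP reached 10 counts in 4 libraries through the ethanol group, where they were high, so their tests support nothing beyond their counts. The groups were compared with edgeR's quasi-likelihood test, with p-values adjusted by Benjamini and Hochberg over all 14893 genes tested, and a gene was called changed at an adjusted p of at most 0.05 and an absolute log2 fold change (log2(FC)) above 0.25. By this rule 8 of the 18 genes (44.4%) were called, 4 higher in O/A (MT-RNR1, MT-RNR2, MT-ND4L and MT-ND4) and 4 lower (MT-TQ, MT-CO2, MT-ND3 and MT-ND6). Over all genes tested, 34.7% were called, 15.8% higher and 18.9% lower, so the count alone does not set the mitochondrial genes apart. Without the 3 tRNA genes, 7 of 15 were called. The same 8 genes had an adjusted p of at most 0.05, against 53.7% of all genes tested. All 12 plus-strand protein genes lay between log2(FC) -0.32 and 0.30, with a median of 0.01. The median over all genes tested was -0.0004. The values below are counts scaled to the library total by TMM (TMM-scaled CPM, here CPM), with the libraries in the order of replicates 1 to 4, and the standard error (SE) of a log2(FC) was derived from the F statistic of the test.

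**Figure D2:**
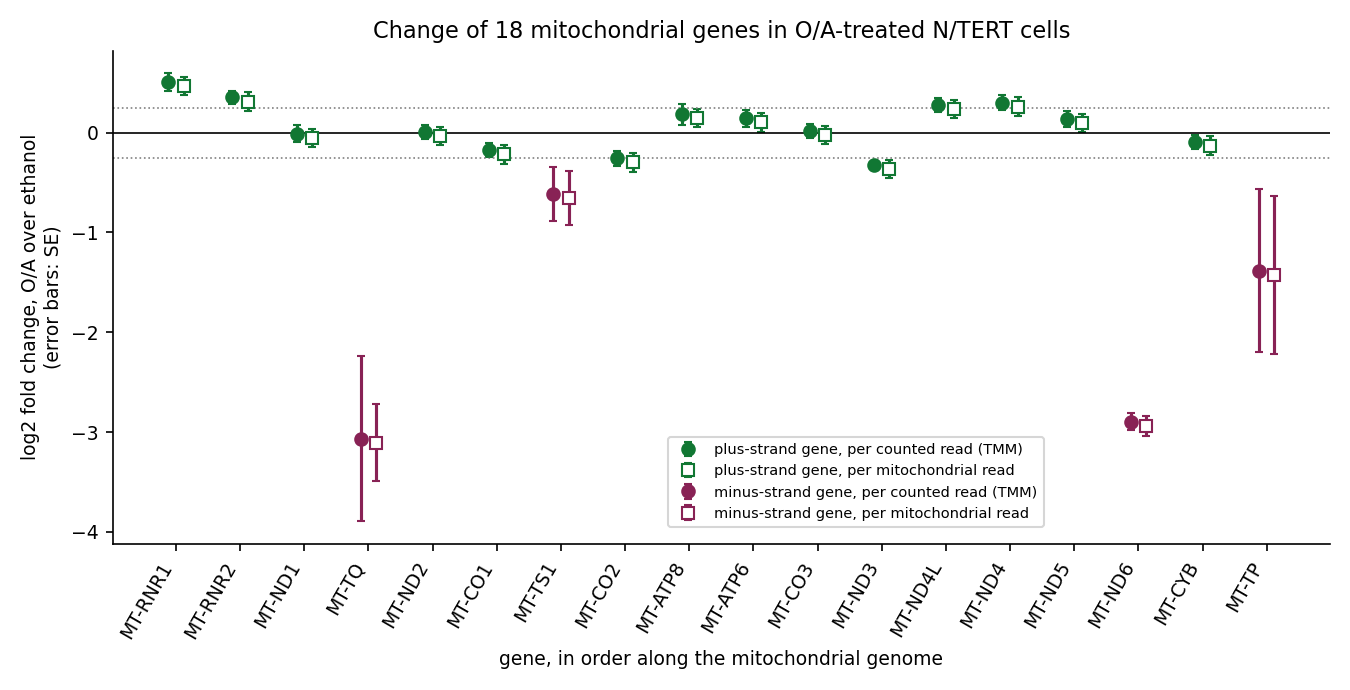
The log2 fold change of O/A over ethanol (vertical axis) is plotted with its SE for the 18 tested genes in genome order, per counted read after TMM scaling (filled circles) and per mitochondrial read (open squares), with plus-strand genes in green and minus-strand genes in purple; dotted lines mark the threshold of 0.25. The plus-strand genes lie within -0.32 to 0.51 per counted read, and the 4 minus-strand genes lie at -3.07, -2.89, -1.38 and -0.62.

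Both rRNA genes were higher in O/A. MT-RNR1, the 12S rRNA of the small mitochondrial ribosome subunit (MT:648-1601), had 611, 556, 532 and 675 CPM in ethanol and 773, 846, 901 and 858 CPM in O/A. MT-RNR2, the 16S rRNA of the large subunit (MT:1671-3229), had 4111, 4217, 3760 and 4400 CPM in ethanol and 4814, 5175, 5681 and 5384 CPM in O/A. For both genes the lowest O/A library lay above the highest ethanol library. In edgeR's quasi-likelihood test the log2(FC) was 0.51 for MT-RNR1 (SE 0.087, adjusted p = 0.00245) and 0.35 for MT-RNR2 (SE 0.067, adjusted p = 0.00393). As a percent of mitochondrial reads, the rRNA genes took 11.03, 10.7, 10.9 and 10.7 in ethanol and 13.7, 13.4, 13.9 and 13.6 in O/A. The means were 10.9% ± 0.152 and 13.7% ± 0.215 (SD, n = 4 each), without overlap. These shares are of oligo(dT)-selected RNA and do not measure the rRNA as a whole.

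Complex I, which oxidizes NADH, has 7 mitochondrially encoded subunits, and the 6 on the plus strand did not move one way. MT-ND4 (MT:10760-12137) had 5677, 5881, 5239 and 6431 CPM in ethanol and 6491, 7267, 7613 and 7248 CPM in O/A. MT-ND4L (MT:10470-10766), which shares a bicistronic mRNA with MT-ND4 and overlaps it by 7 bases, had 633, 737, 634 and 656 CPM in ethanol and 725, 871, 804 and 822 CPM in O/A. The groups were separate for MT-ND4 and overlapped for MT-ND4L, whose second ethanol library exceeded the lowest O/A library. The log2(FC) was 0.30 for MT-ND4 (SE 0.076, adjusted p = 0.0147) and 0.28 for MT-ND4L (SE 0.074, adjusted p = 0.0179; edgeR's quasi-likelihood test for both). The call of MT-ND4L was lost in 3 of 15 alternatives, in which its log2(FC) was within the fold threshold, at 0.23 on both FPKM scales and 0.25 without O/A replicate 2.

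MT-ND3 (MT:10059-10404), which lies 65 bases upstream of MT-ND4L on the same strand, moved the other way. It had 741, 776, 697 and 770 CPM in ethanol and 600.1, 601, 602 and 582 CPM in O/A. Every O/A library lay below every ethanol library, and the O/A libraries lay close together, at 596 ± 9.69 CPM against 746 ± 36.1 CPM in ethanol (SD, n = 4 each). The log2(FC) was -0.32 (SE 0.027, adjusted p = 5.13e-14 in edgeR's quasi-likelihood test).

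The remaining plus-strand subunits of complex I did not pass the test. MT-ND1 (MT:3307-4262) had 1351, 1462, 1303 and 1615 CPM in ethanol and 1264, 1432, 1520 and 1473 CPM in O/A. MT-ND2 (MT:4470-5511) had 2841, 2730, 2553 and 3080 CPM in ethanol and 2634, 2730, 3024 and 2868 CPM in O/A. MT-ND5 (MT:12337-14148) had 1843, 2021, 1811 and 2181 CPM in ethanol and 1953, 2194, 2279 and 2217 CPM in O/A. The groups overlapped for these genes, with a log2(FC) of -0.01 for MT-ND1 (SE 0.088), 0.01 for MT-ND2 (SE 0.069) and 0.14 for MT-ND5 (SE 0.077).

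MT-CYB (MT:14747-15887), cytochrome b, is the one mitochondrially encoded subunit of complex III, the complex that antimycin A blocks. It had 2482, 2539, 2274 and 2716 CPM in ethanol and 2132, 2378, 2502 and 2393 CPM in O/A. The groups overlapped and the gene did not pass, with a log2(FC) of -0.09 (SE 0.070, adjusted p = 0.331 in edgeR's quasi-likelihood test).

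Of the 3 core subunits of complex IV, cytochrome c oxidase, MT-CO2 was called lower. MT-CO1 (MT:5904-7445) had 9034, 9103, 8216 and 9792 CPM in ethanol and 7188, 7968, 8406 and 8477 CPM in O/A. MT-CO2 (MT:7586-8269) had 5283, 5532, 4763 and 5886 CPM in ethanol and 4151, 4375, 4771 and 4659 CPM in O/A. MT-CO3 (MT:9207-9990) had 4670, 4932, 4223 and 5187 CPM in ethanol and 4396, 4889, 4984 and 4947 CPM in O/A. For MT-CO2 the third ethanol library fell just under the third O/A library and the other ethanol libraries lay above all of O/A, whereas MT-CO3 overlapped widely. In edgeR's quasi-likelihood test the log2(FC) was -0.26 for MT-CO2 (SE 0.077, adjusted p = 0.0282), -0.17 for MT-CO1 (SE 0.073, adjusted p = 0.0907) and 0.02 for MT-CO3 (SE 0.074, adjusted p = 0.885). The call of MT-CO2 was lost in 7 of 15 alternatives, at adjusted p-values up to 0.0791, and its log2(FC) ranged from -0.31 to -0.21. Without ethanol replicate 1, 2 or 4 its adjusted p was 0.0562, 0.0702 and 0.0599, and without O/A replicate 1 or 2 it was 0.0666 and 0.0791.

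The genes of the ATP synthase, which oligomycin blocks, did not pass. MT-ATP8 (MT:8366-8572) had 542, 661, 523 and 615 CPM in ethanol and 602, 760.2, 631 and 664 CPM in O/A. MT-ATP6 (MT:8527-9207), whose start overlaps MT-ATP8 by 46 bases, had 2911, 3180, 2658 and 3294 CPM in ethanol and 2990, 3371, 3543 and 3399 CPM in O/A. Both overlapped between groups, with a log2(FC) of 0.18 (SE 0.11, adjusted p = 0.197) and 0.14 (SE 0.084, adjusted p = 0.207) in edgeR's quasi-likelihood test.

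MT-ND6 (MT:14149-14673), the remaining subunit of complex I and the one protein gene of the minus strand, fell the most among the protein genes. It had 77.3, 87.1, 76.6 and 88.8 CPM in ethanol and 9.13, 12.8, 11.999 and 10.3 CPM in O/A. Each ethanol value rests on 1346 to 1891 reads and each O/A value on 159 to 237. The groups lay far apart, at 82.4 ± 6.40 and 11.1 ± 1.63 CPM (SD, n = 4 each). The log2(FC) was -2.89 (SE 0.081, adjusted p = 3.57e-14 in edgeR's quasi-likelihood test), or 7.44-fold lower in O/A, and it was the 4th lowest of the 14893 genes tested. As a percent of the reads on mitochondrial protein genes, MT-ND6 took 0.203, 0.220, 0.219 and 0.210 in ethanol and 0.0260, 0.0328, 0.0295 and 0.0260 in O/A. This share was 0.213% ± 0.00797 and 0.0286% ± 0.00328 (SD, n = 4 each; two-sided exact permutation test, p = 0.0286, the smallest that 4 against 4 libraries allow). The counting error was smaller than this gap, since the 95% Wilson interval of the first O/A library was 0.0223% to 0.0304% and that of the first ethanol library 0.193% to 0.214%. Such intervals cover counting error only. With the test refitted without each library in turn, its log2(FC) stayed between -2.96 and -2.82.

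**Figure D3:**
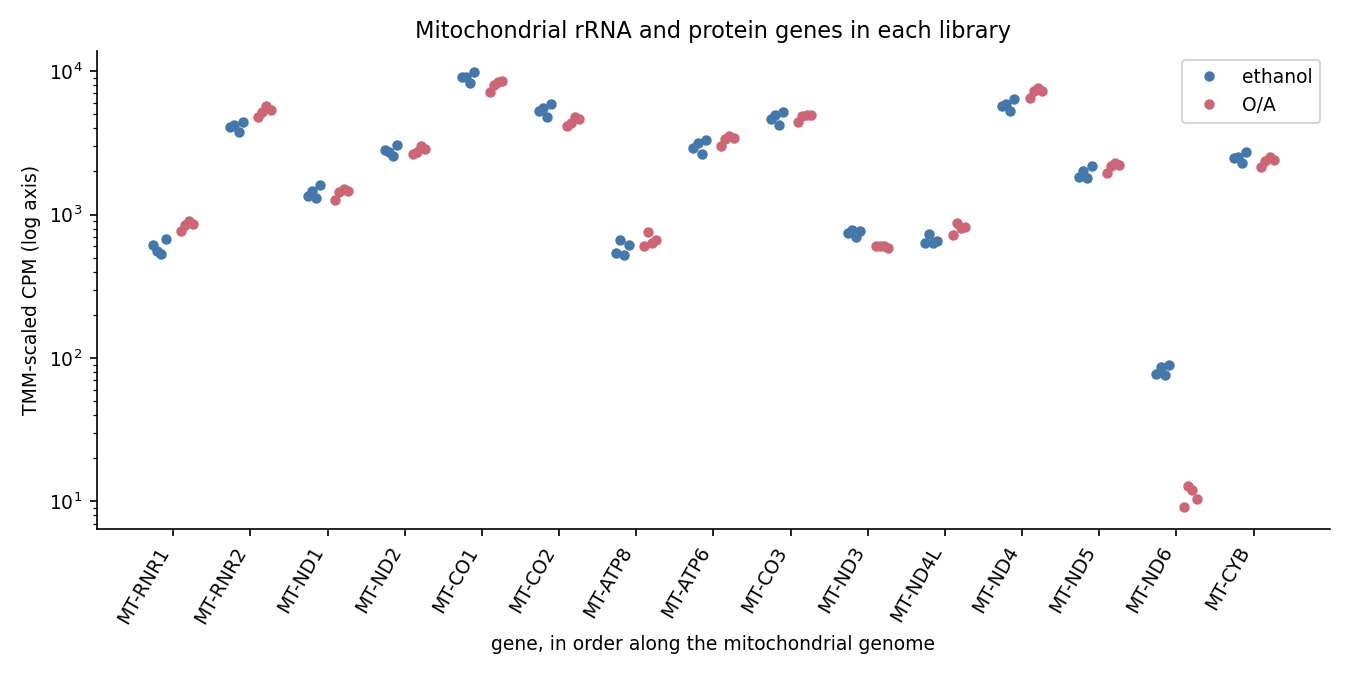
TMM-scaled CPM (log axis) of the 2 rRNA and 13 protein genes in genome order, with each point a library, 4 ethanol in blue and 4 O/A in red. MT-ND6 is the lowest gene in both groups, at 76.6 to 88.8 CPM in ethanol and 9.13 to 12.8 CPM in O/A, and the clouds of MT-RNR1, MT-RNR2, MT-ND3 and MT-ND4 are also separate.

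The minus strand as a whole followed MT-ND6, which held most of its reads. Its 9 genes took 0.193%, 0.210%, 0.207% and 0.203% of mitochondrial reads in ethanol and 0.0243%, 0.0300%, 0.0366% and 0.0249% in O/A. The mean was 7.03 times higher in ethanol, at 0.204% ± 0.00749 against 0.0289% ± 0.00569 (SD, n = 4 each), with no overlap. The 28 plus-strand genes held all other mitochondrial reads, 689039 to 1007616 in ethanol and 708898 to 894116 in O/A. No step that marks the strand is described for these libraries, and whether the counting used the strand is not given in the sources used here. Reads of the minus-strand genes therefore cannot be told from RNA of the plus strand over the same bases.

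The tRNA genes, whose mature products carry no poly(A) tail, gave few reads. Of the 22 genes, 11 had no count in any library (9 on the plus strand and 2 on the minus strand), and the 8 that had counts without passing the filter had at most 17 in any library. Summed over the 22 genes there were 115, 125, 109 and 185 reads in ethanol and 14, 15, 121 and 21 in O/A. O/A replicate 3 thus lay with the ethanol libraries and the other O/A libraries lay below them. Against all mitochondrial reads the sum was 0.0161% ± 0.00162 in ethanol and 0.00498% ± 0.00571 in O/A (SD, n = 4 each). On that scale O/A replicate 3, at 0.0135%, lay just under the lowest ethanol library, at 0.0144%, and the other O/A libraries lay at 0.00180% to 0.00262%.

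MT-TQ had 35, 39, 31 and 56 counts in ethanol and 0, 0, 18 and 0 in O/A. MT-TP, the tRNA for proline (MT:15956-16023, minus strand), had 31, 34, 29 and 45 counts in ethanol and 3, 1, 43 and 4 in O/A. MT-TS1, a tRNA for serine (MT:7446-7514, minus strand), had 23, 24, 16 and 35 counts in ethanol and 10, 11, 24 and 16 in O/A. MT-TQ and MT-TP were thus nearly absent from all O/A libraries but the third, in which MT-TP was as high as in ethanol. In edgeR's quasi-likelihood test the log2(FC) was -3.07 for MT-TQ (SE 0.83, adjusted p = 0.0186), and -1.38 for MT-TP (SE 0.81, adjusted p = 0.207) and -0.62 for MT-TS1 (SE 0.27, adjusted p = 0.0508). Without O/A replicate 3, MT-TP was called with a log2(FC) of -3.56 (adjusted p = 1.73e-10) and MT-TS1 with -0.90 (adjusted p = 0.0120; the same test). In that fit MT-TP reached 10 counts in the ethanol libraries alone, and the library left out was the one whose counts stood apart. MT-TS1 also passed without ethanol replicate 3, at -0.75 (adjusted p = 0.0236). MT-TQ had no count in the O/A libraries other than replicate 3, and without that replicate was at least 12.3-fold lower when each was given a floor of 3 counts. With all libraries MT-TQ was not called by DESeq2 (adjusted p = 0.121) or with the replicate number as a block in edgeR (adjusted p = 0.0925).

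**Figure D4:**
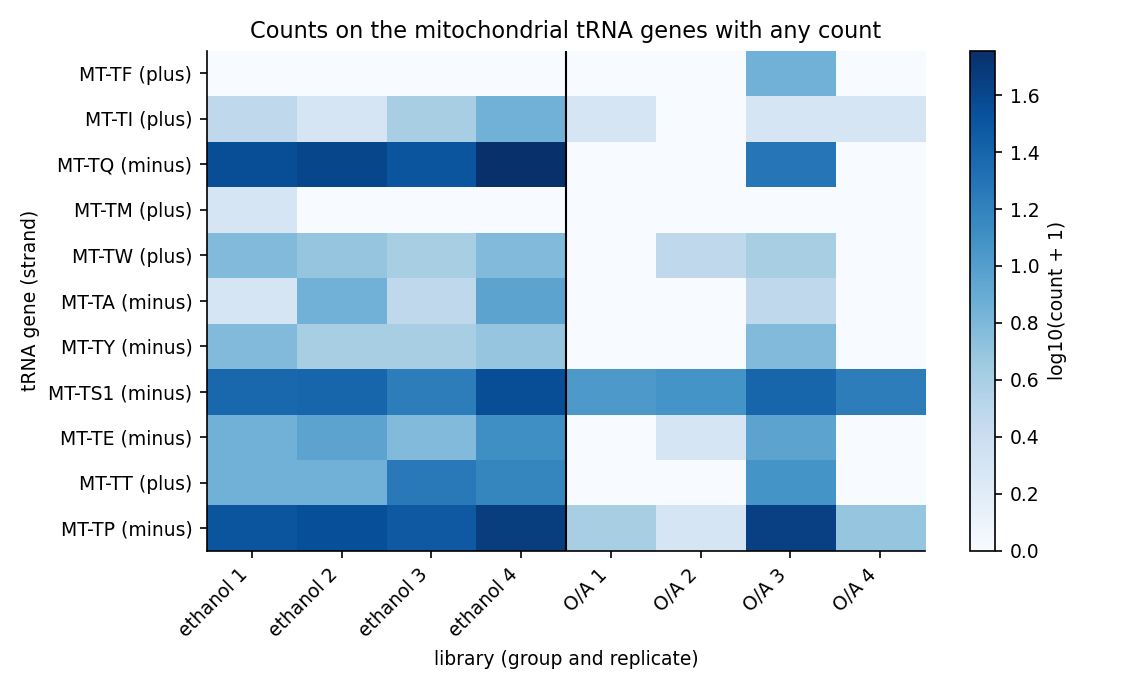
The shade gives log10(count + 1) for the 11 mitochondrial tRNA genes with any count (vertical axis, with their strand) in each of the 8 libraries (horizontal axis). The ethanol columns and O/A replicate 3 are filled for most genes, with 109 to 185 and 121 tRNA reads in all, and the other O/A columns are nearly empty, with 14 to 21.

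O/A replicate 3 did not stand apart in the same way for the longer minus-strand gene. Its MT-ND6 level of 11.999 CPM lay inside the range of the other O/A libraries, 9.13 to 12.8 CPM. Its tRNA reads were spread over both strands, 100 on the minus strand and 21 on the plus strand, against 13 to 20 and 1 to 2 in the other O/A libraries. The groups were also compared for other RNAs without a tail, with 12 nuclear genes of this kind examined, of which 3 could be tested. This comparison of the groups does not show whether O/A replicate 3 differed from the other O/A libraries in such RNAs. RN7SL1, the RNA of the signal recognition particle, had a log2(FC) of -0.05 and SNORD17, a small nucleolar RNA, 0.09, and neither passed. SNORA73B, another small nucleolar RNA, was called lower at -0.96 (adjusted p = 0.0111 in edgeR's quasi-likelihood test), on 10 to 32 counts in ethanol libraries and 7 to 11 in O/A libraries. The cause of the tRNA counts of O/A replicate 3 was not tested.

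A fit with the mitochondrial total of each library in place of the TMM-scaled library size set each gene against the other mitochondrial transcripts. By this fit 8 of 18 genes (44.4%) were again called, 3 higher (MT-RNR1, MT-RNR2 and MT-ND4) and 5 lower (MT-TQ, MT-TS1, MT-CO2, MT-ND3 and MT-ND6). Over all genes tested the same fit called 33.9%, 13% higher and 20.8% lower. Nearly all of these are nuclear genes and no part of the mitochondrial total. The fit drew its estimate of spread in part from these genes. Its SE and calls therefore do not measure the spread of the mitochondrial shares alone. MT-CO1 was not called (adjusted p = 0.0632 in edgeR's quasi-likelihood test), although its share did not overlap between groups. The log2(FC) per mitochondrial read was -2.94 for MT-ND6 (SE 0.10) and 0.47 for MT-RNR1 (SE 0.090). MT-ND4L had 0.23, within the fold threshold, although its adjusted p was 0.0282 in edgeR's quasi-likelihood test. MT-TS1, called at -0.65 (adjusted p = 0.0442), lost its call in 9 of 11 alternatives. MT-ND4, at 0.26, lost its call without ethanol replicate 1 or 2 and without O/A replicate 2 or 4, with a log2(FC) of at least 0.25 in all of them.

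Shares of mitochondrial reads varied less between libraries than CPM did. Over the 14 rRNA and protein genes of the plus strand, the median coefficient of variation in ethanol was 8.59% for CPM and 2.87% for the share, and in O/A 6.63% and 1.65%. On the share, the groups did not overlap for 12 of the 18 genes, 6 higher in O/A (MT-RNR1, MT-RNR2, MT-ATP6, MT-ND4L, MT-ND4 and MT-ND5) and 6 lower (MT-TQ, MT-CO1, MT-CO2, MT-ND3, MT-ND6 and MT-CYB). Per mitochondrial read, 32% of all genes tested did not overlap, 13% higher and 19% lower, but nearly all of these are nuclear genes and no part of that total. On CPM they did not overlap for 6 of 18 (33.3%), against 47.6% of all genes tested. MT-CO1, the most abundant by reads, took 21.1%, 20.5%, 20.9% and 20.7% of mitochondrial reads in ethanol and 17.7%, 17.8%, 17.8% and 18.4% in O/A. MT-ND4 took 13.3%, 13.2%, 13.3% and 13.6% in ethanol and 15.9%, 16.2%, 16.1% and 15.7% in O/A. A share depends on the other genes of the same total. MT-CO1, MT-CYB, MT-ATP6 and MT-ND5 had a separate share without passing the test per counted read.

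Summed by complex, the reads on mitochondrial protein genes held less of complex IV and more of complex I in O/A. Complex IV genes took 49.4% ± 0.293 of these reads in ethanol and 44.8% ± 0.480 in O/A. The plus-strand genes of complex I took 34.6% ± 0.334 and 38.7% ± 0.324, complex V genes 9.27% ± 0.288 and 10.3% ± 0.201, and complex III (MT-CYB) 6.46% ± 0.0568 and 6.09% ± 0.0580 (SD, n = 4 each). The groups did not overlap for any of these 4 sums. They are parts of the same total, so a smaller share of complex IV goes with larger shares elsewhere, and they are not separate results. The sums do not describe every gene of a complex. As a mean percent of all mitochondrial reads, MT-ND4 went from 13.35 in ethanol to 15.998 in O/A. MT-ND4L (1.53 and 1.80) and MT-ND5 (4.52 and 4.83) were also higher. MT-ND3 was lower (1.72 and 1.34), and MT-ND1 and MT-ND2 overlapped between groups. In complex IV, MT-CO1 (20.8 and 17.9) and MT-CO2 (12.3 and 10.04) were lower, and MT-CO3 overlapped (10.9 and 10.7). The protein genes as a class took 89.1% ± 0.151 of mitochondrial reads in ethanol and 86.3% ± 0.219 in O/A, the counterpart of the larger rRNA share. These sums were not tested.

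On the per-length scale (FPKM), which orders the genes by oligo(dT)-selected reads and not by their total RNA, MT-CO2 led in ethanol at 7969 ± 682 FPKM and MT-ND6 was last at 159 ± 12.2 FPKM (SD, n = 4). MT-CO3 (6158 FPKM) and MT-CO1 (5952 FPKM) followed MT-CO2 and overlapped each other, as did MT-ATP6 (4491 FPKM) and MT-ND4 (4281 FPKM). Neighbours in the order overlapped among the 6 genes from MT-ATP8 (2872 FPKM) to MT-ND3 (2191 FPKM), and MT-ND1, MT-ND5 and MT-RNR1 (1523, 1101 and 632 FPKM) were each separate from the next. In O/A the order kept MT-CO2 at the top (6460 ± 394 FPKM) and MT-ND6 at the bottom (20.7 ± 3.08 FPKM). MT-ND4 ranked 5 in ethanol and 4 in O/A, and MT-RNR2 ranked 8 and 6.

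Ratios of FPKM between neighbouring plus-strand genes, which come from the same precursor, are given as a description. Of 13 neighbouring pairs, the ratio did not overlap between groups in 10, and no such count was made for other genes. Most genes belong to a pair on each side, so the pairs are not independent and the count is no result about the genes. The largest difference was between MT-ND3 and MT-ND4L, where the ratio of MT-ND4L to MT-ND3 was 0.995, 1.11, 1.06 and 0.992 in ethanol and 1.41, 1.69, 1.55 and 1.65 in O/A. In ethanol these genes had near equal FPKM, and in every O/A library the FPKM of MT-ND4L was above that of MT-ND3. MT-ND4L shares 7 bases and an mRNA with MT-ND4, so its FPKM may depend on how reads over both genes were counted. The ratio of MT-ATP8 to MT-CO2 was 0.360 ± 0.0249 in ethanol and 0.490 ± 0.0587 in O/A (SD, n = 4 each). That of MT-ND1 to MT-RNR2 was 0.566 ± 0.0256 and 0.440 ± 0.0101, and that of MT-ND3 to MT-CO3 was 0.357 ± 0.0154 and 0.282 ± 0.0189. The pairs that overlapped were MT-ND1 with MT-ND2 and the 2 pairs that share an mRNA, MT-ATP8 with MT-ATP6 and MT-ND4L with MT-ND4. These ratios were not tested.

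Nuclear copies of mitochondrial genes can share reads with them. Of 404 nuclear genes named as such copies, 37 had a count, and together they held 89042 reads, or 1.36% of the reads on the mitochondrial genome. The 6 that passed the filter were MTATP6P1, MTND2P28, MTCO1P12, MTND4P12, MTCO2P12 and MTCO3P12, and none was called. MTATP6P1, on chromosome 1 from 633696 to 634376, held reads equal to 14.4% of those on MT-ATP6 and had a log2(FC) of 0.24 beside 0.14 for MT-ATP6, so the value of MT-ATP6 is uncertain where reads were split. MTND2P28 held 4.11% of the reads of MT-ND2, and the other 4 at most 0.317% of those of their parent. The 28 named copies of MT-ND6 held 3 reads in all 8 libraries together. In the reference genome no stretch of 150 bases of MT-ND6 or of MT-ATP6 was found unchanged in a nuclear copy. Of such stretches of MT-ND2 15.7% were, and of those of MT-CO1 14.5%. This compares reference sequences only and cannot show that no reads were shared, as MTATP6P1 had reads all the same.

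Among nuclear genes that copy mitochondrial DNA or that make, process, modify or degrade mitochondrial RNA, the called genes were mostly lower in O/A. Of 61 such genes, all tested, 24 were lower and 4 higher, with a median log2(FC) of -0.19, beside the 18.9% lower and 15.8% higher among all genes tested. POLRMT, the mitochondrial RNA polymerase, had 5.78 ± 0.224 FPKM in ethanol against 2.91 ± 0.113 FPKM in O/A, a log2(FC) of -0.94 (adjusted p = 1.01e-18 in edgeR's quasi-likelihood test). Of 10 genes of mitochondrial transcription, 5 were called lower, POLRMT, MTERF1 (-0.49) and TFB1M (-0.45) the most, and TFAM, which packages mitochondrial DNA and activates both promoters, had -0.12, within the threshold. Of 13 genes that cut or protect the precursors, 9 were lower, with a median of -0.39. TRMT10C, a subunit of mitochondrial RNase P, led them with 32.9 ± 1.01 FPKM in ethanol against 15.1 ± 0.332 FPKM in O/A, a log2(FC) of -1.08 (adjusted p = 1.99e-26, the same test), before FASTKD3 (-0.71) and PTCD2 (-0.66).

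Of 4 genes of tail addition and mRNA stability, MTPAP, the mitochondrial poly(A) polymerase, fell by 0.41 on the log2 scale and PDE12, which removes tails, by 0.37. LRPPRC and SLIRP, which bind and stabilize the mRNAs, had -0.02 and -0.10 and were not called. Of 4 decay genes none was called, with -0.06 for SUPV3L1 and -0.05 for PNPT1, the helicase and the nuclease that degrade minus-strand RNA (both edgeR's quasi-likelihood test, with adjusted p of 0.356 and 0.281). Of 18 genes that modify mitochondrial tRNA or rRNA, 5 were lower, MRM1 (-1.07), TRMT5 (-0.62) and GTPBP3 (-0.61) the most, and 2 higher, MTO1 (0.47) and NSUN3 (0.35). Of 12 replication genes, 3 were lower, TWNK (-0.79), POLG2 (-0.55) and MGME1 (-0.40), and 2 higher, RRM2B (0.53) and RNASEH1 (0.31). Whether these mRNA differences bear on the mitochondrial transcripts was not tested.

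The nuclear genes of the complexes that the mitochondrial genes help to build were nearly all uncalled. Of 74 nuclear subunits, NDUFA11 of complex I was called higher (0.26) and NDUFV3 of complex I lower (-0.40), beside 34.7% called among all genes tested. NDUFA11 lost its call when ethanol replicate 3 or O/A replicate 4 was left out, which left 1 subunit called. The median log2(FC) was 0.05 for 37 subunits of complex I, 0.04 for 9 of complex III, 0.07 for 11 of complex IV and 0.01 for 17 of complex V. The 12 plus-strand mitochondrial protein genes, 4 of them called, had a median of 0.01, and MT-ND6 at -2.89 lay below every nuclear subunit, of which the lowest was NDUFV3.

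**Figure D5:**
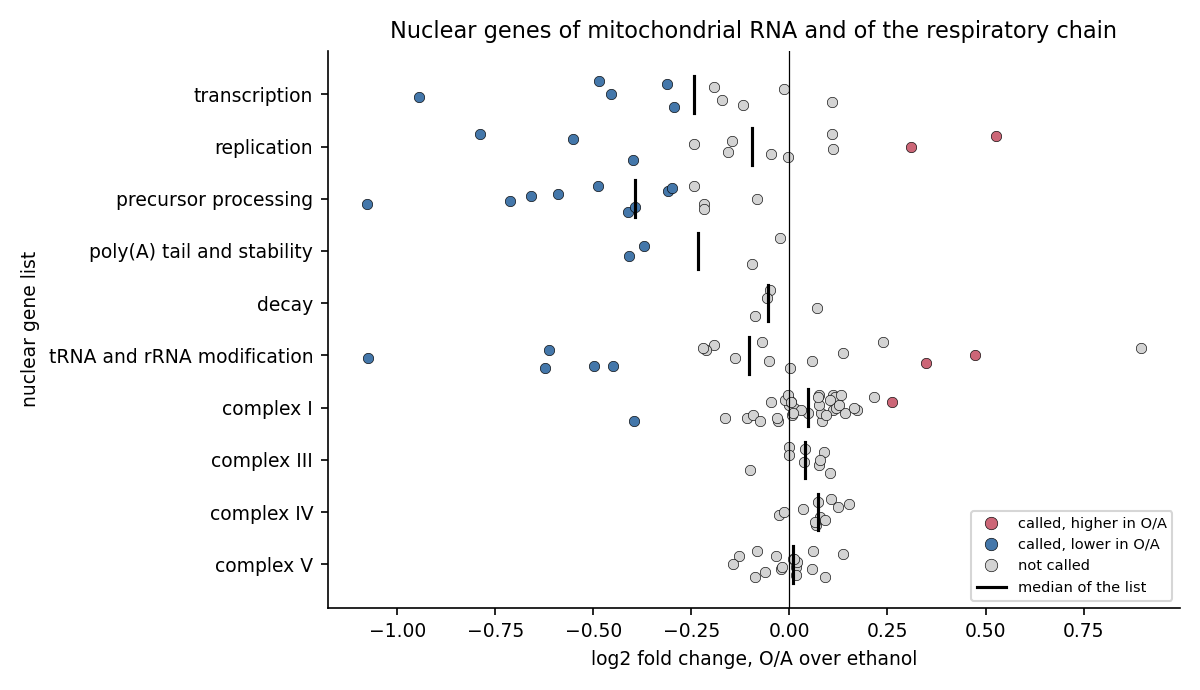
Each point is the log2 fold change of O/A over ethanol (horizontal axis) of a nuclear gene of mitochondrial DNA and RNA upkeep or of a respiratory complex (rows), coloured where called, with a bar at the median of each list. The median of the precursor processing genes is -0.39 and those of the 4 complexes lie between 0.01 and 0.07.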

How the data were processed

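The 8 mRNA libraries of N/TERT cells, 4 ethanol and 4 O/A, were grouped by the sample labels. According to the methods and the submitters' processing notes, the authors aligned reads to GRCh38.p13 with HISAT2 2.0.1 and made each deposited count with HTSeq 0.6.1. The Ensembl release and the strand setting are not given in the sources used here. The authors also deposited FPKM values, which scale these counts by gene length and library total. A deposited table of the authors' DESeq2 comparison, with fold changes and p-values, was not used.

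Counts were tested with edgeR 4.0.16 (R 4.3.3, TMM scaling, robust quasi-likelihood) on the 14893 of 61806 genes that had 10 or more counts in 4 or more libraries. The SE is the absolute log2(FC) divided by the square root of F. A second fit used the mitochondrial read total as library size without TMM. Shares carry 95% Wilson intervals, and sums over genes were not tested. The mitochondrial genes and the gene lists were chosen with earlier results of these data known. All 37 mitochondrial genes were accounted for. Of each nuclear list, up to 3 called genes in each direction were named, with POLRMT, TFAM, LRPPRC, SLIRP, MTPAP, SUPV3L1 and PNPT1, and of the nuclear copies the 6 with most counts. The start, end and strand of all 37 genes were the same in GENCODE v44, and sequences were read from that GRCh38 genome. Alternatives were DESeq2 1.42.0, limma 3.58.1 on log2(FPKM + 1) and log2(FPKM + 0.1) (mean FPKM of 0.1 or more), median-ratio scaling, scaling on nuclear genes, no filter, other fold thresholds, a replicate block and each library left out. The edgeR test was tested on simulated data of 14732 genes, where it recovered 54 of 70, 55 of 59 and 66 of 66 genes changed by an absolute log2(FC) of 0.5, 1 and 2, with 7 false calls. The simulation changed 200 genes, far fewer than the 5165 called in the data, so its error rates may not hold there. Library totals of 17210404 to 20999927 counts leave the tRNA genes imprecise.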

Additional observations from a re-analysis of the deposited data

Results flagged for a closer look

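In 9 of 62 groups of 4 values examined for the mitochondrial genes and shares, 1 library lay far from the other 3 of its group by Dixon's criterion, where chance gives about 1 in 20, or 3.1. Many of the 62 groups share reads and are not independent, so the 9 cannot be read as an excess over that number. All 9 were O/A groups, and 5 of them came from the tRNA reads of O/A replicate 3. In that library MT-TQ had 0.951 CPM, with 0 in the other O/A libraries, and MT-TP had 2.27 CPM, with 0.0538 to 0.230 CPM in the others. The tRNA genes there took 0.0135% of mitochondrial reads, with 0.00180% to 0.00262% in the others. Split by strand, the plus-strand tRNA genes took 0.00235% (others 0.000125% to 0.000240%) and the minus-strand ones 0.0112% (others 0.00156% to 0.00249%). The cause of these values was not tested.

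The remaining ones were small differences. MT-CO3 had 4396 CPM in O/A replicate 1, with 4889 to 4984 CPM in the others, and MT-ND3 had 582 CPM in O/A replicate 4, with 600.1 to 602 CPM in the others. The plus-strand complex I genes took 38.3% of mitochondrial protein gene reads in O/A replicate 4, with 38.9% in the others, and the complex V genes took 10.6% in O/A replicate 2, with 10.2% to 10.3% in the others. The calls of MT-ND3 and MT-CO3 were the same without either library.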

How the results depend on the processing

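MT-RNR1, MT-RNR2, MT-ND3, MT-ND4 and MT-ND6 kept their call and direction in all 15 alternatives of the test per counted read. Among the values of single genes under alternatives, 241 kept side and direction, 12 lost the call (MT-CO2, MT-TQ and MT-ND4L), 5 gained it (MT-TP and MT-TS1) and 12 changed sign, none of the latter called. These were MT-ND1 (-0.054 to 0.052 with each library left out), MT-ND2 (-0.038 on both FPKM scales and -0.035 to 0.055 with libraries left out) and MT-CO3 (-0.028 on both FPKM scales and -0.037 to 0.060). The number of mitochondrial genes called was 14 of 26 tested by limma on log2(FPKM + 1), 3 higher and 11 lower. These 26 include the tRNA genes that had counts without passing the filter of the main test. The number was 2 above an absolute log2(FC) of 1 (MT-TQ and MT-ND6), and 6 to 10 with each library left out, per counted read and per mitochondrial read alike. No share over all genes is given here for these alternatives, so the counts do not set the mitochondrial genes apart. Of the 61 nuclear genes of mitochondrial RNA and DNA, 43 passed without a fold threshold, beside 53.7% of all genes tested. An absolute log2(FC) above 1 was passed by 2 (TRMT10C and MRM1, both lower), and 28 to 32 passed with libraries left out. Of the 74 nuclear respiratory subunits, 24 passed without a fold threshold (18 higher, 6 lower), beside the same 53.7%, 0 above 1, and 1 to 2 with libraries left out.

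The difference in mitochondrial share, O/A minus ethanol, was -0.0144 percentage points, and -0.149 to 0.117 with libraries left out, positive without ethanol replicate 2 (0.0181), ethanol replicate 4 (0.116) or O/A replicate 1 (0.117). From FPKM in place of counts it was -0.344. From FPKM the differences were -0.419 for the minus-strand share and -0.148 for the tRNA share. They were 1.99 for the rRNA share and -0.314 for the MT-ND6 share of protein gene reads. From counts, the minus-strand difference without the rRNA genes was -0.195. Also from counts, the same shares in that order had differences of -0.178 to -0.172, -0.0139 to -0.0100, 2.72 to 2.88 and -0.188 to -0.182 with libraries left out.

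The pairing of libraries by replicate number was checked and was not visible in the counts (the labels do not say that equal numbers share an experiment). The correlations of the deviations of libraries of equal number were 0.0443, -0.00324, -0.0281 and 0.0744. Such low values cannot show whether equal numbers came from the same experiment. Under the replicate block, 5160 genes were called in place of 5165, and 6 mitochondrial genes (4 higher, 2 lower), as MT-TQ (adjusted p = 0.0925 in edgeR) and MT-CO2 (0.0703) lost their call. Not every library correlated best with its own number. Few reads on the tRNA genes limit their precision. The causes of these changes were not tested.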
